A study of Mus musculus with 22 samples.

Results

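The 10-week comparison set RNA on tagged ribosomes of outer hair cells beside RNA of the whole cochlea, in mice 10 weeks old. Its members are all libraries labelled with that age, 3 of immunoprecipitated RNA (IP) and 3 of input, and they make up 6 of the 22 libraries of the study. All mice carried the genotype PrestinCreERT2/+;RiboTagHA/+, so IP and input share both alleles and the tamoxifen treatment. The IP libraries are labelled as outer hair cells (enriched), HA antibody and translated mRNAs. The input libraries are labelled as whole cochlea, no antibody and total RNA. The other ages, P8, P14, P28 and 6 weeks, have the same genotype and 2 libraries of each kind, and serve here only as a background. The tamoxifen dose, per 40 g of body weight, was 3 mg for mice younger than 21 days and 9 mg for older mice. The age of the 10-week mice at injection was, like any pooling of cochleae, not given in the sources used here.

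Outer hair cells are the sensory cells of the organ of Corti that change length with membrane voltage and so amplify sound. Their motor protein is prestin, encoded by Slc26a5, and in these mice 1 allele of that locus makes a Cre recombinase that tamoxifen activates. Cre switches the ribosomal protein gene Rpl22 to a version with a haemagglutinin (HA) tag, and an antibody to the tag then pulls down ribosomes with the RNA on them. The tag thus depends on Cre made from the prestin locus. A pulldown from mice without the tag was not analysed here.

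The 3 IP libraries held 30757875 to 34500734 reads and the 3 input libraries 33170715 to 39885719. Reads counted to genes ran from 14978013 to 16736519 in IP and from 22044136 to 26782744 in input. Values are CPM, the reads of a gene scaled to a library total of 1000000, and 1 read was worth 0.0251 to 0.0325 CPM. The replicates are separate samples by the labels and the design text, and p-values measure the spread between these samples. Input libraries correlated with each other across genes at a Pearson r of 0.986 to 0.989, and genes are not independent replicates. IP 2 and IP 3 correlated at 0.973, while IP 1 correlated with them at 0.934 and 0.932. IP 1 therefore stands apart from the other IP libraries, and results that rest on it are given with and without it.

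Reads outside annotated genes took 47.7%, 36.0% and 41.0% of the 3 IP libraries and 11.9%, 11.6% and 12.1% of the 3 input libraries. The groups did not overlap, and the difference was 29.7 percentage points (exact permutation test, two-sided, p = 0.1, the smallest p that 3 against 3 allows). Counting from gene reads alone leaves the order of genes within a library as it is, but raises all IP values relative to input. The median gene stood at a log2 change of -0.01 with CPM as deposited and at 0.31 with CPM over gene reads. On that scale 1387 genes were higher and 515 lower, beside 337 and 452 on the deposited scale.

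Of 18737 genes tested, 337 were higher in IP (1.80%) and 452 were lower (2.41%). The test was limma on log2(CPM + 1), with all 22 libraries in the fit, and genes were called where the p adjusted by Benjamini and Hochberg was under 0.05. The added 1 makes changes of genes near 0 CPM look smaller than they are. A limma fit of the 6 libraries alone called 3241 genes higher (19.9%) and 4365 lower (26.8%) of 16260. That fit called 334 of the 337 and all 452 again. The median SD of a gene among the 3 input libraries was 0.156 on the log2 scale and among the 3 IP libraries 0.333, whereas it reached 1.55 in the P8 input group, which shares the estimate of the spread in the fit over 22 libraries. All 3 IP libraries stood above all 3 input libraries for 4341 genes (23.2%) and below them for 5553 (29.6%). Unless a sentence names the fit of 6 libraries, adjusted p-values come from the fit over 22. Counts over lists below are to be read beside 1.80% higher and 2.41% lower over 22 libraries, and 19.9% and 26.8% over 6. Leaving out 1 of the 6 libraries cut the calls to between 45 and 178 higher and between 72 and 165 lower, the fewest without input 1 and the most without IP 1.

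Ocm, Slc26a5 and Ikzf2, the genes chosen to mark outer hair cells, were higher in each IP library than in each input library. In whole-cochlea RNA, fewer cells of a type and less RNA per cell cannot be told apart. Ocm (chr5:144019804-144026670, GRCm38) encodes oncomodulin, a calcium buffer with EF hands that outer hair cells make in quantity. It was at 475, 182 and 302 CPM in the 3 IP libraries and at 36.9, 38.6 and 47.0 CPM in the 3 input libraries. The lowest IP library lay above the highest input library, and IP 1 was the highest of all. The log2 change was 2.84 (SE 0.58, limma adjusted p = 0.0025), and the call held when any 1 of the 6 libraries was left out. Per kilobase of exon, Ocm ranked 13 among 18669 genes in IP and 523 in input.

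Slc26a5 (chr5:21810655-21865604) was at 53.1, 36.8 and 17.5 CPM in IP and at 6.88, 6.12 and 6.21 CPM in input. The groups did not overlap, yet the IP libraries spread 3-fold among themselves, with IP 1 the highest and IP 3 the lowest. The mean was 35.8 ± 17.8 CPM in IP (SD, n = 3) and 6.40 ± 0.418 CPM in input. The log2 change of 2.18 (SE 0.82) did not pass over 22 libraries (limma adjusted p = 0.113) and passed in the fit of 6 (limma adjusted p = 0.00195). Ikzf2 (chr1:69531214-69687245) encodes Helios, a transcription factor of outer hair cell identity. It was at 21.9, 56.6 and 39.7 CPM in IP and at 7.80, 10.4 and 9.80 CPM in input. Here IP 1 was the lowest IP library, whereas it was the highest for Ocm and Slc26a5. Its log2 change was 1.88 (SE 0.63, limma adjusted p = 0.0664 over 22 libraries and 0.00237 over 6). With TMM scaling (trimmed means of log ratios), both genes passed over 22 libraries, at limma adjusted p = 0.0491 for Slc26a5 and 0.0017 for Ikzf2. With edgeR on the recovered reads Ikzf2 passed (adjusted p = 0.00126) and Slc26a5 did not (0.138). Leaving out 1 library gave limma adjusted p from 0.152 to 0.346 for Slc26a5 and from 0.0767 to 0.302 for Ikzf2.

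Rpl22 (chr4:152325742-152334071), the gene that carries the tag, was at 37.0, 34.6 and 34.0 CPM in IP and at 114, 105 and 119 CPM in input. All IP libraries lay below all input libraries, with little spread in either group. The log2 change of -1.65 (SE 0.58) did not pass over 22 libraries (limma adjusted p = 0.0844) and passed in the fit of 6 (limma adjusted p = 0.000102). The values count mRNA of the gene and not the tagged protein, so they do not check the tag.

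**Figure D1:**
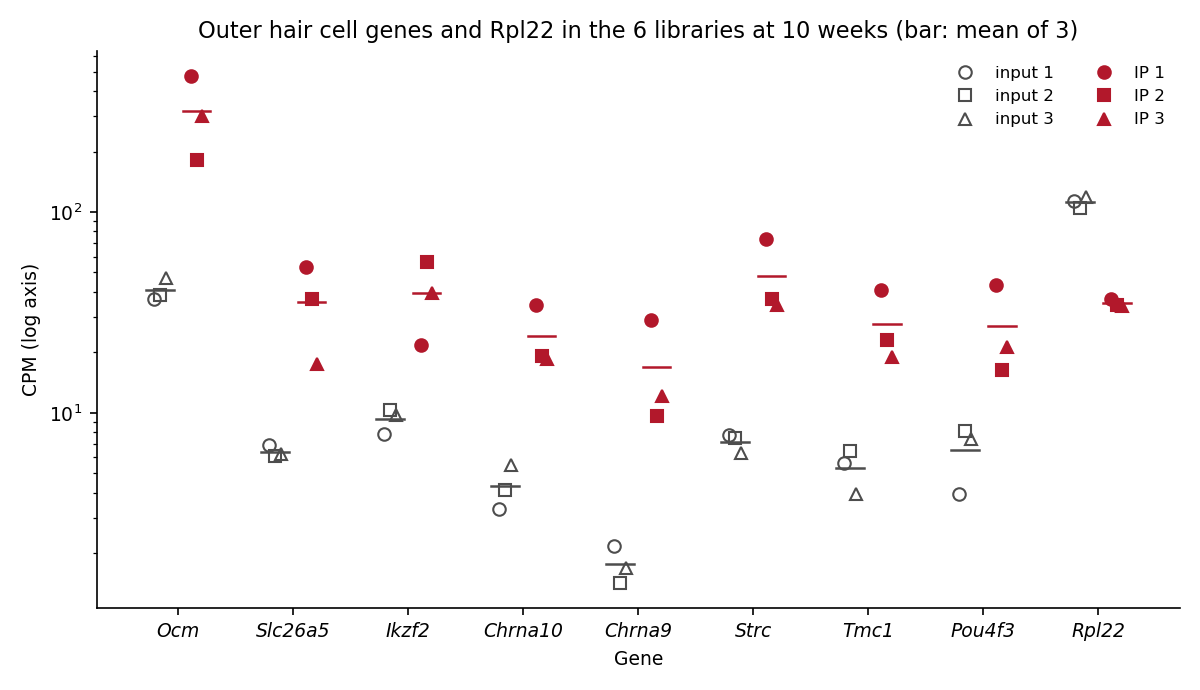
CPM on a log axis for 8 hair cell genes and Rpl22 in the 6 libraries at 10 weeks, with 1 point per library and a bar at the mean of each group of 3. Every IP point of the hair cell genes lies above every input point of the same gene, while the Rpl22 points lie the other way, at 34.0 to 37.0 CPM in IP and 105 to 119 CPM in input.

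The efferent synapse brakes outer hair cells, through the nicotinic receptor subunits encoded by Chrna9 and Chrna10 and the calcium-activated potassium channel encoded by Kcnn2. Chrna9 was at 29.0, 9.62 and 12.1 CPM in IP and at 2.18, 1.43 and 1.69 CPM in input, and it passed (log2 2.55, limma adjusted p = 0.0444). Chrna10 was at 34.6, 19.2 and 18.6 CPM in IP and at 3.33, 4.14 and 5.49 CPM in input, and did not pass over 22 libraries (log2 2.20, limma adjusted p = 0.105). For both receptor genes all IP libraries lay above all input libraries, and IP 1 was the highest. Kcnn2 was at 36.2, 35.2 and 33.4 CPM in IP and at 39.3, 39.9 and 31.3 CPM in input, so that the groups overlapped (log2 -0.07, limma adjusted p = 0.984). Of the 16 channel and synapse genes tested, 1 was called higher over 22 libraries, beside 1.80% of all genes, with a median of 0.47. The fit of 6 called 8 higher and 3 lower, beside 19.9% and 26.8% of all genes.

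Genes of the hair bundle followed the same order. Strc encodes stereocilin, which links the tips of stereocilia to each other and to the tectorial membrane. It was at 73.5, 37.1 and 34.2 CPM in IP and at 7.71, 7.50 and 6.33 CPM in input, and it passed (log2 2.51, limma adjusted p = 0.0317). Tmc1, the pore subunit of the mechanotransduction channel, was at 40.8, 23.1 and 18.9 CPM in IP and at 5.65, 6.42 and 3.95 CPM in input (log2 2.12, limma adjusted p = 0.085). For both, the groups did not overlap and IP 1 was the highest. Strc and Chrna9 each lost the call when any 1 of the 6 libraries was left out, with limma adjusted p from 0.0919 to 0.164 for Strc and from 0.0923 to 0.213 for Chrna9. Pou4f3, a transcription factor that keeps hair cells alive, was at 43.2, 16.4 and 21.2 CPM in IP and at 3.93, 8.15 and 7.42 CPM in input (log2 1.83, limma adjusted p = 0.162).

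Over 5 lists of hair cell genes, for outer hair cell markers, transcription factors, shared genes, mechanotransduction and channels with synapses, 84 members were tested. Of these 3 were called higher (Ocm, Strc and Chrna9), 2 were called lower and 79 did not pass, with a median log2 change of 0.65 beside -0.01 for all genes. The share called higher, 3 of 84, lies near the 1.80% of all genes. In the fit of 6 libraries, 44 of 80 were called higher and 11 lower, beside 19.9% and 26.8% of all genes. The 15 outer hair cell markers had a median of 1.12, with Ocm called over 22 libraries and 9 of 14 called higher in the fit of 6. In that fit Kcnj13 and Veph1 of the same list were called lower. Without IP 1, the outer hair cell list still had 1 member called.

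Of 18 transcription factors tested, none was called over 22 libraries (limma). In the fit of 6, 12 were called higher and none lower, beside 19.9% and 26.8% of all genes, with a median of 0.98. Those 12 were Rfx7, Ikzf2, Pou4f3, Rfx3, Lhx3, Gfi1, Sall1, Barhl1, Rfx1, Rfx2, Isl1 and Eya1. Gfi1, a repressor that hair cells need, was at 10.1, 10.9 and 9.63 CPM in IP and at 2.12, 3.01 and 2.83 CPM in input, with no overlap. Of the 28 bundle and transduction genes, 24 had a positive log2 change, and the median was 0.83. In the fit of 6, 16 of 26 were called higher and 2 lower, beside the same shares of all genes. Loxhd1, Cdh23, Myo7a, Espn, Adgrv1 and Pcdh15, all of this list, had log2 changes of 2.07, 1.75, 1.57, 1.53, 1.32 and 1.11. None of these passed over 22 libraries, at limma adjusted p from 0.116 (Loxhd1) to 0.497 (Pcdh15).

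Some genes that hair cells express were lower in IP. Pvalb, the calcium buffer parvalbumin, was at 35.5, 15.6 and 29.5 CPM in IP and at 217, 119 and 202 CPM in input. All IP libraries lay below all input libraries, and the log2 change was -2.72 (SE 0.54, limma adjusted p = 0.0029), called also without any 1 of the 6 libraries. Fbxo2, a ubiquitin ligase subunit that binds glycoproteins and is abundant in the organ of Corti, was at 460, 291 and 346 CPM in IP and at 1776, 1633 and 1602 CPM in input (log2 -2.21, limma adjusted p = 0.0375). The Fbxo2 call was lost without any 1 of the 6 libraries, at limma adjusted p from 0.0652 to 0.173. Otof, the calcium sensor of transmitter release in inner hair cells, was at 25.6, 24.3 and 23.5 CPM in IP and at 15.3, 33.3 and 17.4 CPM in input, so that the groups overlapped. Among the 12 genes of the lateral wall and cuticular plate, none was called over 22 libraries. Of 11 tested in the fit of 6, 5 were higher (Slc26a5, Sptbn5, Sptbn1, Lmo7 and Ripor2) and 3 lower (Slc9a3r1, Actg1 and Actb). Beside these stand 19.9% and 26.8% of all genes, and the share called lower lies near its background.

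Markers of other cells were mostly lower. The lists covered supporting cells, spiral ganglion neurons, Schwann cells, stria vascularis, fibrocytes, bone, macrophages, neutrophils, erythroid cells and endothelium, 10 in all, with 122 members tested. None was called higher, 18 were called lower (beside 2.41% of all genes) and 104 did not pass, with a median of -0.99. In the fit of 6 libraries, 1 of 118 was called higher (Egfl7) and 70 lower. The summed level of these lists was 11772, 12059 and 11052 CPM in IP and 42595, 42378 and 41031 CPM in input. That of the outer hair cell markers was 855, 543 and 580 CPM in IP and 219, 247 and 241 CPM in input. Ocm alone held 475, 182 and 302 CPM of the sum in IP. The 5 hair cell lists together summed lower in IP, at 4399, 3669 and 3465 CPM against 5980, 6276 and 5780 CPM in input. The markers of other cells were thus lower in sum in each IP library, and not absent from any. The number called lower in these lists fell to between 3 and 10 when 1 library was left out. Lum, Dcn and Hbb-bs kept the call without each of the 6 libraries, and the other 15 lost it without at least 1.

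Between 3 and 4 members passed in the lists of neurons, stria and fibrocytes. Of 14 spiral ganglion markers, 4 fell, the surface protein Thy1 (log2 -2.18), the hydrolase Uchl1 (-2.11), the synaptic protein Snap25 (-1.78) and the calcium buffer Calb2 (-2.47). With the replicate number as a block Snap25 did not pass (limma adjusted p = 0.0526), which leaves 3. Calb2 also marks inner hair cells, and of 10 tested markers of those cells it alone was called over 22 libraries, with 5 lower and none higher in the fit of 6. It was at 141, 73.8 and 121 CPM in IP and at 701, 444 and 704 CPM in input, with no overlap. Of 13 stria markers, 3 fell, Mlana (log2 -2.93) and Dct (-2.52) of melanocytes and Kcne1 (-2.04), the partner of the potassium channel that secretes endolymph potassium. Of 13 fibrocyte and mesenchyme markers, 4 fell, the proteoglycans Lum (log2 -2.75) and Dcn (-2.64), otospiralin Otos (-2.47) and the carbonic anhydrase Car3 (-2.22).

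In the remaining lists 0 to 3 members passed. Of 12 Schwann cell markers 1 fell, Apod (log2 -2.71), a lipid carrier at 1683, 1083 and 1027 CPM in IP and at 8079, 8165 and 7976 CPM in input. Of 18 supporting cell markers 1 fell, Sparcl1 (log2 -2.77). In that list Lfng and Prox1 had log2 changes of 1.23 and 0.89, without a call in either fit. Of 12 bone and cartilage markers 1 fell, Spp1 (log2 -2.58), which encodes osteopontin. None of 10 macrophage markers was called over 22 libraries (limma), while 9 were called lower over 6. Of 10 neutrophil markers 1 fell, S100a8, and of 10 erythroid markers 3 fell, Hbb-bs, Hbb-bt and Hba-a1, whose reads near-identical globin genes can share. Of 10 endothelial markers none was called over 22 libraries (limma), and the median was 0.02. In the fit of 6 the endothelial genes Cldn5 and Emcn were lower, whereas Egfl7 was higher, at 23.0, 25.8 and 26.9 CPM in IP against 6.54, 8.52 and 6.60 CPM in input.

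**Figure D2:**
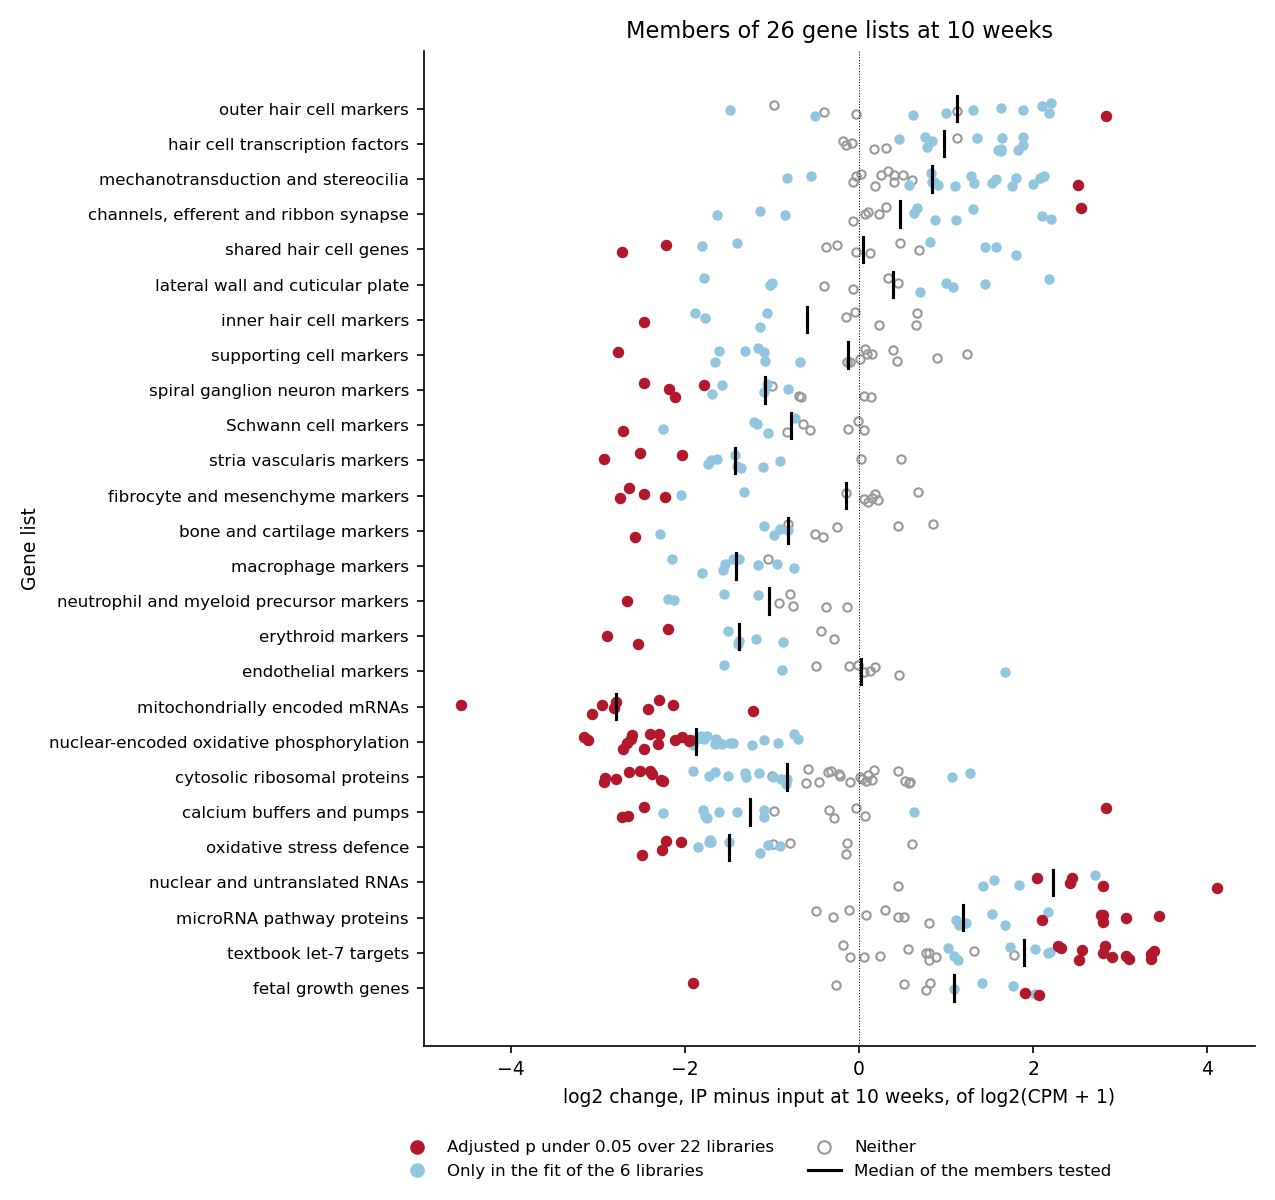
Log2 change from input to IP on log2(CPM + 1) for each tested member of 26 gene lists, with 1 point per gene and a black bar at the list's median. Red points were called over 22 libraries and blue points only in the fit of 6. The list of let-7 targets has 12 red points, all above 0, and the list of nuclear-encoded oxidative phosphorylation has 14, all below 0.

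RNAs for the respiratory chain were lower in IP throughout. The mitochondrial genome encodes core subunits of its enzyme complexes, and its RNAs are translated by ribosomes inside mitochondria that lack Rpl22. Its mRNAs took 0.613 ± 0.161% of gene reads in IP (SD, n = 3) and 4.25 ± 0.388% in input. mt-Co1, the catalytic subunit of cytochrome oxidase, was at 716, 506 and 270.4 CPM in IP and at 11418, 11590.3 and 9927 CPM in input. It had the largest decrease among genes that met the naming rule (log2 -4.57, SE 0.73, limma adjusted p = 0.000175). All 9 mitochondrial mRNAs that could be tested fell, with a median of -2.79. mt-Co2 and mt-Co3 were listed at 0 in all 3 IP libraries. Without input 1 or without input 2, mt-Co3 could not be tested. It thus met the filter of 1 CPM in at least 2 libraries only through these input libraries. The filter alone set the direction of mt-Co3, so its fall adds no support to the count of 9. mt-Co2 could be tested without each library, but at 0 in IP it could not rise, so its fall is not taken as support either. Whether reads of these genes were lost in mapping or counting was not tested. Without 1 library, between 2 and 6 of the 9 were called, the most without IP 1. The ribosomal RNAs mt-Rnr2 (log2 -3.45) and mt-Rnr1 (-3.05) fell as well. The mt-Cytb call was lost without IP 3, input 1 or input 2 (limma adjusted p = 0.0736, 0.0622 and 0.0592), and that of mt-Nd5 without IP 3 (0.0585).

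Of 32 nuclear genes for oxidative phosphorylation, 14 fell and none rose, and all 32 were called lower in the fit of 6 libraries, beside 2.41% and 26.8% of all genes. The median log2 change was -1.87. By complex, 4 of 11 tested genes of complex I fell (median -1.88), none of 3 of complex II (-1.64), 2 of 4 of complex III (-1.72), 4 of 7 of complex IV (-2.47) and 4 of 6 of complex V, the ATP synthase (-2.03). Cox7a2, a small subunit of cytochrome oxidase, was at 15.4, 9.88 and 16.1 CPM in IP and at 129, 137 and 121 CPM in input (log2 -3.16, limma adjusted p = 0.00118). Ndufa1 of complex I was at 10.7, 8.94 and 8.39 CPM in IP and at 91.7, 86.3 and 86.3 CPM in input (log2 -3.11, limma adjusted p = 0.00214). Neither gene had overlapping groups. Ndufs6 (log2 -3.12), also of complex I, fell in the same way. Without 1 library, the number called in this list fell to between 5 and 9.

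Genes for cytosolic ribosomal proteins were more mixed. Of 41 tested, 9 fell and none rose, with a median of -0.83, and in the fit of 6 libraries 20 were lower and 2 higher, Rpl11 and Rps27a. Beside these stand 2.41% of all genes lower over 22 libraries, and 26.8% lower and 19.9% higher over 6. Of the large subunit 4 of 26 fell (median -0.71) and of the small subunit 5 of 15 (-1.15). Rpl32 was at 13.5, 16.6 and 19.3 CPM in IP and at 135, 128 and 129 CPM in input (log2 -2.93, limma adjusted p = 0.00644). Between 4 and 8 of the list were called when 1 library was left out. Ribosomal protein genes have many processed pseudogenes, and reads of the copies can be split or lost. Rps21, Rps27rt and Rpl37rt, the last annotated as a transcribed pseudogene, were among the 15 largest decreases, with log2 changes of -2.97, -3.07 and -3.0. Of 1037 processed pseudogenes tested, 104 fell (10.0%) and 9 rose.

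The other large decreases belonged to secreted and interferon-induced products. Apoe, a lipid carrier, was at 355, 230.1 and 227 CPM in IP and at 2080.0, 2135 and 2115 CPM in input (log2 -2.99, limma adjusted p = 0.00375). Rnase1, a secreted ribonuclease, was at 6.64, 12.9 and 6.60 CPM in IP and at 96.5, 99.5 and 82.6 CPM in input (log2 -3.33, limma adjusted p = 0.000857). Wfdc18 (log2 -3.50) and the interferon-induced Ifi27l2a (-3.44) fell with them, and none of the 4 had overlapping groups. S100a1, an EF-hand protein, fell from 1077 ± 3.73 to 172 ± 18.9 CPM (SD, n = 3, log2 -2.65, limma adjusted p = 0.00568). Of 18 calcium buffers and pumps, 1 rose (Ocm) and 3 fell (Calb2, S100a1 and Pvalb), beside 1.80% and 2.41% of all genes. Of 17 genes that defend against oxidants, 4 fell (Prdx5, Prdx1, Prdx2 and Sod1) beside 2.41% of all genes, none rose, and the median was -1.49. Without 1 library, 0 to 3 of those 4 were called.

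RNAs that stay in the nucleus were higher in IP. Kcnq1ot1, a long noncoding RNA transcribed antisense to Kcnq1 in an imprinted domain, had the largest increase under the naming rule. It was at 303, 710.3 and 654 CPM in IP and at 25.6, 24.0 and 40.5 CPM in input. The groups lay far apart, with a log2 change of 4.11 (SE 0.55, limma adjusted p = 1.9e-06). Kcnq1 itself was at 22.2, 32.8 and 26.5 CPM in IP and at 74.2, 84.0 and 64.7 CPM in input, the opposite order. Whether the counting used the strand is not given in the sources used here, so reads of the 2 genes may be mixed. Xist, the RNA that coats the inactive X chromosome, was at 254, 250.0 and 164 CPM in IP and at 20.3, 53.3 and 25.6 CPM in input (log2 2.81, limma adjusted p = 0.00398).

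Malat1, a nuclear RNA of speckles, was the most abundant long noncoding RNA in IP that is no predicted gene, at 19605, 13921 and 14575 CPM against 2075, 2243 and 3067 CPM in input. The groups did not overlap, and the log2 change of 2.71 did not pass over 22 libraries (limma adjusted p = 0.0648). Per kilobase it stood at 2296 CPM in IP. Of 10 nuclear and untranslated RNAs tested, 5 rose (Kcnq1ot1, Xist, Mirg, Snhg11 and Snhg14) beside 1.80% of all genes, and all 9 tested in the fit of 6 were higher there. The Mirg and Snhg14 calls were lost without any 1 of the 6 libraries, that of Xist without input 1 (limma adjusted p = 0.0559), and that of Snhg11 without each library but IP 2 and input 2. Lncpint, at 31.5, 18.4 and 29.0 CPM in IP and at 0.946, 1.88 and 2.05 CPM in input, rose by 3.37 on the log2 scale (limma adjusted p = 0.00218). Scarna2, a guide RNA of Cajal bodies, rose by 2.96 (limma adjusted p = 0.0149), a call lost without any 1 library. Rn7sk, the small RNA that holds the elongation factor P-TEFb, was at 499, 414 and 408 CPM in IP and at 68.3, 71.4 and 73.4 CPM in input (log2 2.61, limma adjusted p = 0.00701).

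The annotation classes differed in their counts, which stand beside 1.80% higher and 2.41% lower of all genes. Of 952 genes of the class TEC, single-exon loci whose status as genes is unsettled, 154 rose (16.2%) and none fell. Their summed level was 2449, 1881 and 2149 CPM in IP and 454, 499 and 508 CPM in input, without overlap. Of 138 sense intronic transcripts, 22 rose (15.9%) and none fell. Of 471 lincRNAs 18 rose (3.82%) and 1 fell, and of 547 antisense transcripts, the class of Kcnq1ot1, 3 rose (0.548%) and 3 fell. Protein-coding genes made up 111 of the 337 increases and 326 of the 452 decreases, that is 0.746% and 2.19% of the 14884 tested. The share of reads outside genes, given above, moved with these classes, and its part in these counts was not tested.

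Most of the other large increases held a match to a microRNA seed, that of let-7, of miR-29 or of both. MicroRNAs guide Argonaute proteins to mRNAs by pairing of bases 2 to 8, the seed, with a complementary stretch, most often in the 3' untranslated region (UTR), and GW182 proteins of the Tnrc6 family then repress the mRNA. The let-7 family rises as tissues mature and represses genes of the embryo, and the miR-29 family targets collagens and the methylation machinery of DNA. The mature sequences, from RefSeq on GRCm38.p6, are printed to show the seeds, in capitals. let-7a is encoded at chr13:48538239-48538260 on the minus strand and shares its seed with the other names of its group of 11. miR-29a is encoded at chr6:31062673-31062694 on the minus strand, and its seed is shared by 3 names.
let-7a-5p: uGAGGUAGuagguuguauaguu
miR-29a-3p: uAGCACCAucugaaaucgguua

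The complements of these seeds, CTACCTC for let-7 and TGGTGCT for miR-29, were searched on the sense strand of the 3' UTRs of 14809 protein-coding genes. Among these UTRs, 10.5% held CTACCTC and 15.5% held TGGTGCT at least once. A match is a run of letters and not evidence of binding. Of the 15 largest increases, 12 had a UTR to search, of which 8 held a let-7 match, 7 a miR-29 match and 10 either. Of the 15 largest decreases, 9 had one, and none held either match. Those 9 UTRs had 58 to 448 bases and the 12 of the increases 524 to 7962, beside a median of 1194 over all genes searched. Either match was held by 23.4% of all genes searched. The part of UTR length in these counts was not tested. The sites below are 22 bases of UTR that end 1 base after the match, with the match in capitals. They are shown because they belong to the genes with the largest changes, and all 4 let-7 matches of Hic2 are given.
Hic2 let-7 match 1, chr16:17259370-17259391 (+): tgctggtgactattCTACCTCc
Hic2 let-7 match 2, chr16:17259698-17259719 (+): gggtgacccattgcCTACCTCt
Hic2 let-7 match 3, chr16:17260349-17260370 (+): ccttctgacctttgCTACCTCt
Hic2 let-7 match 4, chr16:17262871-17262892 (+): cagggacccctcccCTACCTCa
Nr6a1 let-7 match 4 of 8, chr2:38726592-38726613 (-): aaaggggcattaaaCTACCTCa
Trim71 let-7 match 1 of 4, chr9:114512472-114512493 (-): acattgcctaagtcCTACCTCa
Tet1 miR-29 match 1 of 7, chr10:62812209-62812230 (-): agaaccatagagtcTGGTGCTt
Tet2 miR-29 match 1 of 5, chr3:133466332-133466353 (-): gttgcaggatcatcTGGTGCTg
Tet3 miR-29 match 1 of 8, chr6:83367984-83368005 (-): cccgagctgctctgTGGTGCTt

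Hic2 (chr16:17233572-17263430), a transcriptional repressor, was at 6.12, 135 and 117 CPM in IP and at 3.53, 4.24 and 3.50 CPM in input. IP 2 and IP 3 stood far above input, whereas IP 1 stood just above its highest library. The log2 change was 3.35 (limma adjusted p = 0.00296), and the call was lost without IP 2 (0.0715) or IP 3 (0.0681). The Hic2 UTR held 3 miR-29 matches beside its 4 for let-7. Nr6a1 (chr2:38723370-38927688), an orphan nuclear receptor of early embryos, was at 39.0, 242 and 202 CPM in IP and at 10.6, 12.1 and 10.3 CPM in input (log2 3.39, limma adjusted p = 0.000704). Its UTR held 8 let-7 matches. Trim71, an RNA-binding ubiquitin ligase of stem cells known as a let-7 target, was at 3.19, 31.7 and 23.8 CPM in IP and at 1.15, 0.451 and 0.874 CPM in input (log2 3.06, limma adjusted p = 0.0129). That call held without IP 1 and was lost without each of the other libraries, at up to 0.142 without IP 2. The Trim71 UTR held 4 let-7 and 2 miR-29 matches.

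Arid3a, a DNA-binding regulator with 2 let-7 matches, was at 12.0, 112 and 111 CPM in IP and at 3.56, 4.01 and 5.73 CPM in input (log2 3.35). Plagl2, a zinc finger factor with 1 match for each seed, was at 12.9, 219 and 171 CPM in IP and at 7.26, 7.70 and 10.6 CPM in input (log2 3.10). Prtg, the immunoglobulin-family protein protogenin with 2 let-7 matches, was at 12.0, 116 and 93.8 CPM in IP and at 4.30, 6.42 and 7.69 CPM in input (log2 2.91). In all 3, IP 1 was above input by far less than IP 2 and IP 3. The limma adjusted p-values were 0.00218, 0.00403 and 0.00702. Plagl2 and Prtg lost the call without IP 2 (0.0931 and 0.109) or IP 3 (0.0745 and 0.0894), and Prtg also without input 1 (0.062).

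Of 30 textbook let-7 targets, 12 rose and none fell, beside 1.80% and 2.41% of all genes, with a median of 1.90. The 12 were Nr6a1, Hic2, Arid3a, Plagl2, Trim71, Prtg, Arid3b, Dicer1, Igdcc3, Zcchc3, Fign and Ccnj. Those that did not pass included Hmga2 and Myc, with log2 changes of 1.02 and 0.56. The number called ran from 2 to 14 when 1 library was left out, and was 14 without IP 1. Nr6a1 and Arid3a kept the call without each library, and the other 10 lost it without IP 2. Of the 30, 29 were lowest in IP 1 among the IP libraries, beside 47.6% of all genes. The medians of the list in IP 1, IP 2 and IP 3, each set against the mean of the 3 input libraries, were 0.59, 2.64 and 2.50.

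The TET enzymes, which oxidise methylated cytosine, rose together. Tet3 was at 129, 761 and 732 CPM in IP and at 42.4, 42.0 and 40.2 CPM in input (log2 3.29, limma adjusted p = 0.00066). Its UTR held 1 let-7 match and 8 miR-29 matches. Tet2 was at 81.5, 293 and 275 CPM in IP and at 16.5, 22.8 and 22.1 CPM in input (log2 3.15, limma adjusted p = 0.00117), with 5 matches. Tet1 was at 10.8, 101 and 77.8 CPM in IP and at 4.88, 3.64 and 5.00 CPM in input (log2 3.06, limma adjusted p = 0.00445), with 7 matches. None of the 3 had overlapping groups, and in each IP 1 was the lowest IP library. The Tet1 call was lost without IP 2 (0.0867) or IP 3 (0.0733).

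Proteins of the microRNA pathway were among the increases as well. Tnrc6a, a GW182 protein, was at 214, 1489 and 1322 CPM in IP and at 66.3, 77.3 and 61.4 CPM in input (log2 3.44, limma adjusted p = 0.000768). Tnrc6b and Tnrc6c, its paralogs, rose by 2.80 and 2.78 on the log2 scale. None of the 3 UTRs searched held a match for either seed. Dicer1, which cuts microRNA precursors, was at 127, 674 and 494 CPM in IP and at 44.7, 53.5 and 50.3 CPM in input (log2 2.80). Ago2, the Argonaute that cleaves its targets, was at 48.4, 512 and 412 CPM in IP and at 45.2, 55.2 and 50.6 CPM in input. IP 1 lay within the input range of Ago2, and the log2 change of 2.10 had a limma adjusted p of 0.0307 with IP 1 and 0.00145 without it. Of 20 genes of the pathway tested, 6 rose and none fell, beside 1.80% and 2.41% of all genes, with a median of 1.19, and the number called ran from 1 to 6 when 1 library was left out. Tnrc6a kept the call without each library, and the other 5 lost it without IP 2. Drosha, Dis3l2 and Ago1 had log2 changes of -0.30, 0.44 and 0.52 and did not pass.

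The remaining large increases were Lmbr1l and Hif3a. Lmbr1l, a membrane receptor protein with no match for either seed, was at 41.5, 123 and 119 CPM in IP and at 7.89, 11.9 and 8.35 CPM in input (log2 3.07, limma adjusted p = 0.00165). Hif3a, a hypoxia-inducible factor subunit with 1 match for each seed, was at 5.65, 24.4 and 21.7 CPM in IP and at 0.746, 1.63 and 1.18 CPM in input (log2 2.86, limma adjusted p = 0.0249). IP 1 was again the lowest IP library in both. The Hif3a call held without IP 1 and was lost without each other library, at up to 0.157.

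**Figure D3:**
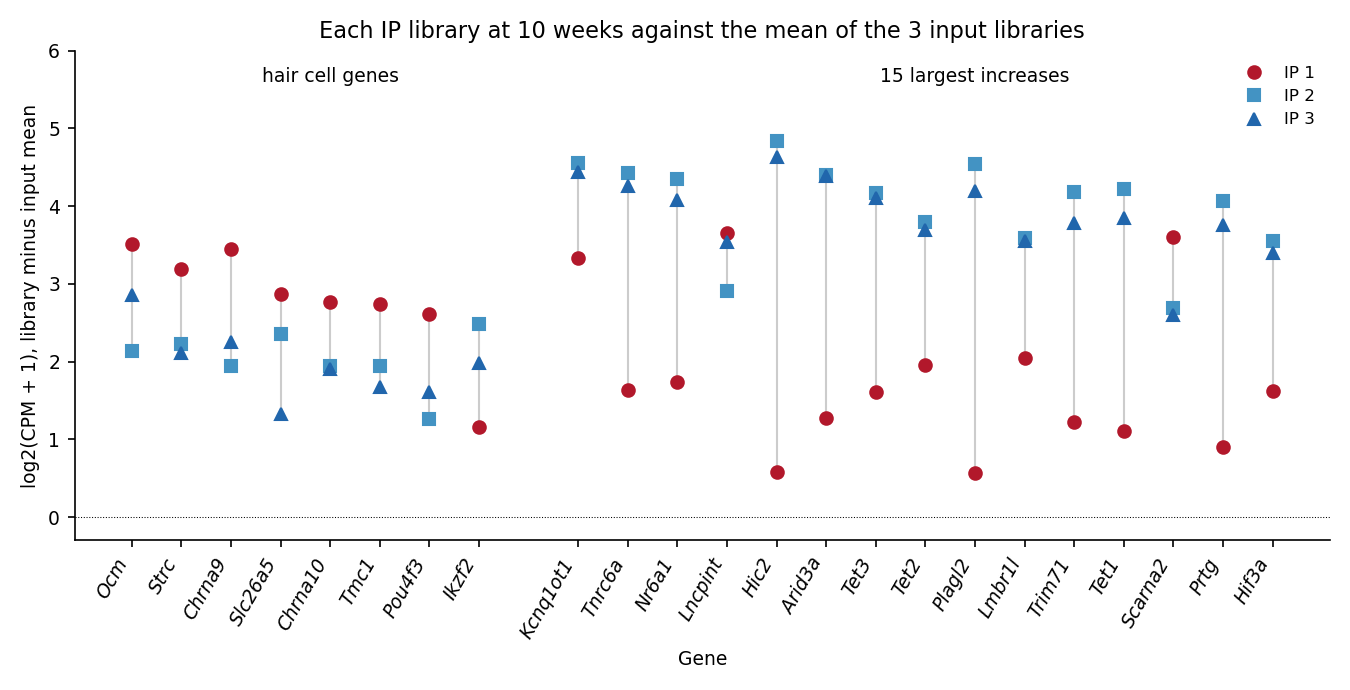
Difference of each IP library from the mean of the 3 input libraries on log2(CPM + 1), for 8 hair cell genes and for the 15 largest increases, with 1 point per IP library. IP 1 is the highest IP library for Ocm, Slc26a5 and Strc and the lowest for Hic2, Nr6a1 and the TET genes.

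Of the 15 largest increases, 13 were lowest in IP 1 among the IP libraries, while Lncpint and Scarna2 were highest in it. Its median over the 15 largest increases was 1.63 above the input mean, beside 4.18 in IP 2 and 3.85 in IP 3. The 8 IP libraries of the other ages, against the input mean of their own age, ran from 3.67 to 5.11. Over the let-7 targets the other ages ran from 2.49 to 4.03, again all above the 0.59 of IP 1. Over the 15 outer hair cell markers, the medians were 1.15, 1.12 and 0.71 in IP 1, IP 2 and IP 3, and 10 of the 15 were highest in IP 1, as were 19 of the 28 bundle genes. For all genes tested, 32.9% were highest and 47.6% lowest in IP 1. The transcription factors of hair cells went the other way, with 13 of 18 lowest in IP 1, beside the same 47.6%. IP 1 also had the largest share of reads outside genes and the fewest gene reads of the 6 libraries, and the part of either in this pattern was not tested.

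**Figure D4:**
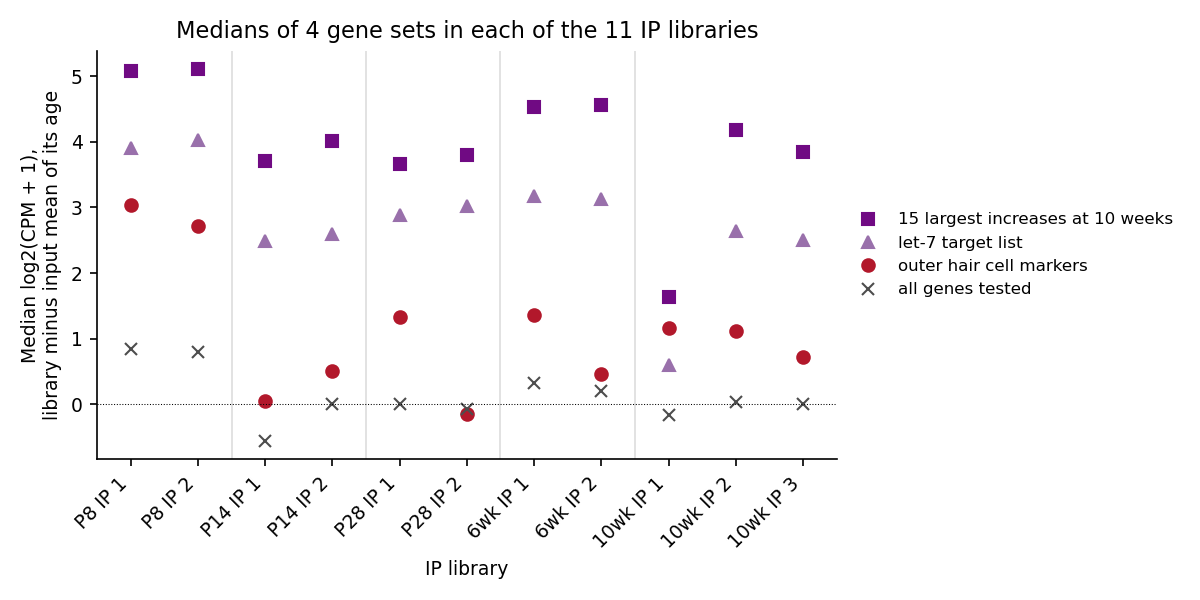
Median difference from the input mean of the same age, on log2(CPM + 1), in each of the 11 IP libraries, for the 15 largest increases at 10 weeks, the let-7 targets, the outer hair cell markers and all genes tested. The 15 increases have a median of 1.63 in 10-week IP 1 and of 3.67 or more in each other IP library.

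The number of matches in a UTR went with the difference from input over all protein-coding genes. Genes with 0, 1, 2 and 3 or more let-7 matches had median log2 changes of -0.11, 0.21, 0.56 and 1.26, from 13251, 1362, 168 and 28 genes. For miR-29 the medians were -0.13, 0.18, 0.53 and 0.94, from 12511, 1924, 297 and 77 genes. In IP 1 the 28 genes with 3 or more let-7 matches had a median of 0.30, in IP 2 of 1.73 and in IP 3 of 1.70. For 3 or more miR-29 matches these medians were 0.26, 1.34 and 1.38. Each of the 3 IP libraries thus had the same order from 0 to 3 or more, with smaller steps in IP 1. Each of the 7 other families searched also had a higher median at 3 or more matches than at 0. At 3 or more the medians were 0.55 for miR-183 (19 genes), 0.40 for miR-96 (22), 0.36 for miR-182 (45) and 0.36 for miR-21 (11). They were 0.33 for miR-9 (51), 0.33 for miR-125 (78) and 0.14 for miR-16 (309), the lowest of the 9 families. No difference between families was tested.

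UTR length went with the same difference. The median UTR was 2211.5 bases among the 110 called-higher protein-coding genes with a UTR, 432 among the 315 called lower and 1194 among all. Among called-higher genes 33.6% held a let-7 match and 45.5% a miR-29 match, and among called-lower genes 1.90% and 3.49%. Among UTRs of 2301 bases or more, the median log2 change was 0.06 for the 2898 genes with no let-7 match and 1.24 for the 25 with 3 or more. The same medians for miR-29 were 0.03 over 2478 genes and 0.90 over 66. Length still differed within this range, with median UTRs of 3262 and 4899 bases for let-7 and 3223.5 and 5080.5 for miR-29. Each other family searched also had a higher median at 3 or more matches than with none there. Those medians at 3 or more ran from 0.27 for miR-16 (243 genes) to 0.61 for miR-96 (19 genes). These are descriptions over genes, which share libraries and are not independent.

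**Figure D5:**
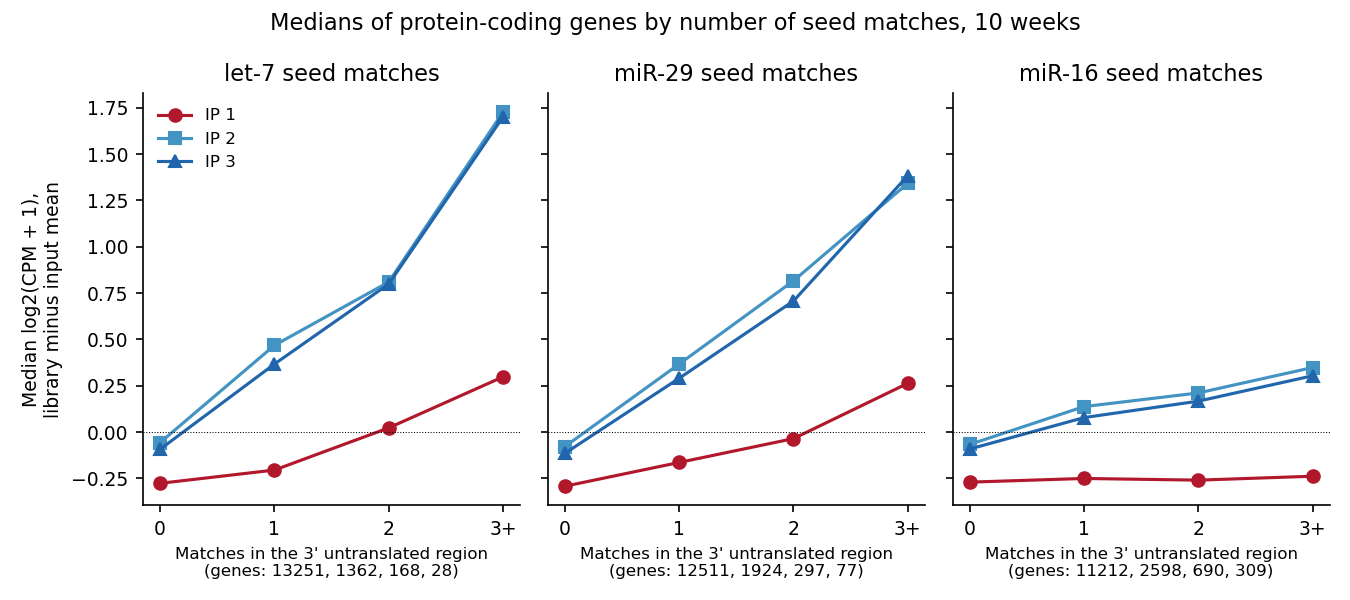
Median log2 difference from the input mean for protein-coding genes with 0, 1, 2 and 3 or more UTR matches to the seeds of let-7, miR-29 and miR-16, with 1 line per IP library. For 3 or more let-7 matches the medians are 0.30 in IP 1, 1.73 in IP 2 and 1.70 in IP 3.

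Genes of fetal growth were also read with and without IP 1. H19, an imprinted noncoding RNA, was at 6.43, 55.3 and 53.2 CPM in IP and at 5.31, 4.84 and 7.42 CPM in input. IP 1 lay within the input range, and the log2 change was 2.06 (limma adjusted p = 0.0454, and 0.00708 without IP 1). Igf2, the growth factor gene that neighbours H19, was at 21.2, 465 and 354 CPM in IP and at 87.3, 85.4 and 88.2 CPM in input. It lay below input in IP 1 and above it in the others, and did not pass (log2 0.81, limma adjusted p = 0.575). Sox11, a neural transcription factor, was at 25.8, 179.5 and 131 CPM in IP and at 23.4, 21.4 and 21.1 CPM in input (log2 1.91, limma adjusted p = 0.0473, and 0.00905 without IP 1). H19 and Sox11 each lost the call without any library other than IP 1, at up to 0.296 and 0.338. Cdkn1c, an inhibitor of cyclin-dependent kinases, fell from 90.3 ± 4.06 to 23.5 ± 3.88 CPM (SD, n = 3, log2 -1.91, limma adjusted p = 0.0455), a call lost without any 1 library. Of 11 genes of this list, 2 rose and 1 fell (1.80% and 2.41% of all genes), and 10 were lowest in IP 1 (47.6% of all genes).

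Levels per kilobase of exon rank RNAs by their level for their length, which lifts short entries and does not give shares of a library. The 10 highest RNAs outside the mitochondrial genome held 4 predicted genes, the nuclear RNAs Malat1 and Rn7sk, and 4 protein-coding genes of other cochlear cells, Ptgds, Sparc, Coch and Ucma. Among the predicted genes, Gm23935, Gm24270 and Gm24187 have only 57 bases of exon each, and the last pair averaged 105 and 56.7 CPM in IP. Gm42418, the remaining predicted gene, averaged 15215 CPM in IP and 27945.5 CPM in input. Ptgds, prostaglandin D synthase, was at 2871, 2505 and 2400.2 CPM in IP and at 13589, 14176 and 13213 CPM in input. Coch, the cochlin of fibrocytes, was at 1880.1, 1829.6 and 1383 CPM in IP and at 6821, 7569 and 6566 CPM in input. Both lay below input in all IP libraries without passing over 22 libraries (limma adjusted p = 0.1 and 0.102). Sparc, the matrix protein osteonectin, was at 193, 3643 and 3146 CPM in IP and at 782, 762 and 753 CPM in input. Ucma, a cartilage protein, was at 78.5, 621 and 704 CPM in IP and at 403, 395 and 348 CPM in input. Sparc and Ucma lay below input in IP 1 and above it in IP 2 and IP 3, and neither passed (limma adjusted p = 0.71 and 0.919). Without IP 1 the log2 change went from 0.77 to 2.14 for Sparc and from -0.23 to 0.79 for Ucma, again without passing.

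Ranks per kilobase among 18669 genes place the hair cell genes beside these. Slc26a5 ranked 1990 in IP and 9806 in input, Pou4f3 2108 and 8702, and Chrna10 2863 and 10684. Strc ranked 3573 in IP and 11835 in input, and Chrna9 5108 and 13635. Tmc1, Ikzf2 and Myo7a ranked 7152, 7875 and 8016 in IP and 13042, 12835 and 12226 in input. Each of these genes thus ranked higher in IP than in input, and Ocm alone of them was within the first 100 in IP.

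At the other ages, which were not used to call these genes but share the spread of the fit, the differences mostly had the same direction. Of the 337 genes called higher, the IP mean was above the input mean for 241 at P8, 280 at P14, 247 at P28 and 312 at 6 weeks. The shares of all genes with IP above input were 75.5% at P8, 39.1% at P14, 43.8% at P28 and 62.4% at 6 weeks, so that the 71.5% of the called genes at P8 was not above its background. Of the 452 called lower, IP was below input for 316 at P8, 441 at P14, 436 at P28 and 441 at 6 weeks, beside 21.9%, 59.7%, 53.3% and 37.0% of all genes. Of the 111 protein-coding genes called higher, 106, 105, 103 and 110 were above input at these ages, beside 80.2%, 36.8%, 43.8% and 62.9% of all protein-coding genes.

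Whether the difference between IP and input at 10 weeks was unlike that of the other ages was tested as a contrast of the 10-week change against the mean change of the other 4 ages. limma called no gene in either direction, with 836 genes at an unadjusted p under 0.05 and a smallest adjusted p of 0.0709. edgeR on the recovered reads called none either, and DESeq2 called 6 higher and 69 lower. For Slc26a5 the 10-week change was larger by 1.63 on the log2 scale (SE 0.96) than that mean. Its log2 difference between IP and input was 2.99 at P8, -0.48 at P14, 0.10 at P28 and -0.42 at 6 weeks. The 2.18 at 10 weeks was below the value at P8, which rests on unlike input libraries. Slc26a5 was at 3.38 CPM in P8 input 1 and at 0.465 CPM in P8 input 2. In P8 input 2 the predicted gene Gm42418 took 58.3% of gene reads. For Ocm the 10-week change was larger than the mean change of the other ages by 0.49 (SE 0.68). Neither difference passed (limma adjusted p = 0.998 for both).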

How the data were processed

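RNA was sequenced from ribosome pulldowns (IP) and whole cochleae (input) with a directional kit, per the labels' protocols. Alignment used TopHat, version not given, against GRCm38, per the submitters' processing notes. For the counting of reads, tool and strand setting were not given in the sources used here. The authors deposited CPM per gene for each library, scaled to all reads of the table, as the column totals of 1000000 show. The tables held 49671 gene identifiers, of which 49412 were on GENCODE M21. Another 5 entries name no gene. They held 45.6% to 56.6% of reads in 10-week IP and 32.9% to 34.2% in input, and stayed out of the tests. Each deposited CPM (100%) was a whole number of reads within 0.01, so reads were recovered.

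Genes had to reach 1 CPM in at least 2 libraries. limma 3.58.1 (R 4.3.3) tested log2(CPM + 1) with a trended prior and 1 mean for each of the 10 groups. On the recovered reads, edgeR 4.0.16 called 896 genes higher and 1460 lower, and DESeq2 1.42.0 called 1685 and 1650. The share of reads outside genes was compared with an exact permutation test (scipy 1.17.1). On simulated reads the limma fit recovered 12% of 2-fold and 91% of 4-fold changes among 16507 genes, and for the contrast between ages 9% and 76% among 16525. The changed genes averaged 5 CPM or more, and the simulation gave every group the same spread. In the data the median SD of a gene ran from 0.156 in the 10-week input to 1.55 in the P8 input. The recovered shares therefore do not measure the power in these data.

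The text names Slc26a5, Ocm, Ikzf2 and Rpl22. It names the 15 largest called changes each way, where the higher group averaged 5 CPM or more, IP and input did not overlap, and the symbol was not that of a predicted gene or pseudogene. It also names members of 26 lists and the 10 genes with the highest IP CPM per kilobase. Members and lists were chosen with earlier results of these data known, so counts over the lists are not independent evidence. Within the lists, members beyond the largest called changes were picked after their values were seen. Some list members are not reported here. UTRs came from GENCODE M21 transcripts and were searched with Python 3.11.15.

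Replicate numbers come from the sample titles. Deviations from the group means correlated at 0.112, 0.190 and 0.217 for IP and input of the same number and at -0.156 to -0.025 otherwise. Deviations within a group cancel, so positive values for the same number bring negative values for the others. The contrast between them therefore does not test the pairing, which was taken from the titles. The main fit used no pairing, and counts with the replicate number as a block are given below.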

Additional observations from a re-analysis of the deposited data

How the results depend on the processing

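None of the 15 largest increases or the 15 largest decreases changed direction under any alternative, while Ucma, which was not called, went from -0.23 to 0.79 without IP 1. Fewer genes were higher than lower, except with CPM over gene reads, without a filter, with DESeq2, without IP 1 and without IP 2, where more were higher. The numbers of genes higher and lower in IP at 10 weeks (337 and 452) were 1210 and 1767 with TMM scaling, 1949 and 2202 with quantile normalization, and 1387 and 515 with CPM over gene reads. They were 190 and 307 with a pseudocount of 0.25, 405 and 243 without a filter, 1821 and 2742 without the low-yield libraries of other ages, 896 and 1460 with edgeR, and 1685 and 1650 with DESeq2. The fit of the 6 libraries gave 3241 and 4365, 3363 and 4364 with the replicate block, 3471 and 4298 with TMM scaling, 3544 and 4037 with edgeR, and 4789 and 4978 without IP 1; the last 3 were chosen after seeing the data. Leaving out 1 library gave 45 to 178 higher and 72 to 165 lower. The share of reads outside genes differed by 26.6 to 32.5 percentage points.

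With the replicate block, 446 genes were higher and 500 lower, of which 335 and 427 were among the 337 and 452, and 1251 and 1841 with TMM scaling added. Among the list members reported here, the block brought Igf2bp2, Peg3, S100a9, Lyz2, Bglap2 and Fignl2 to an adjusted p under 0.05 in limma, and Atp5d, Snap25 and Sox11 (0.0504, 0.0526 and 0.0543) lost it. It changed no call of the other list members reported here. The outer hair cell, channel, bone and neutrophil lists then had 2 called members instead of 1, and the macrophage list 1 instead of 0.

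For the change of enrichment, where limma called 0 higher and 0 lower, quantile normalization gave 2 and 4, CPM over gene reads 1 and 1, no filter 109 and 33, DESeq2 6 and 69, and TMM scaling 0 and 1. The cause of these differences was not tested. Depth limits the genes near 1 CPM, and with 3 libraries a group most 2-fold changes were missed in simulated reads.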
